A study of Mus musculus with 8 samples.

Results

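The 10 genes described here encode proteins of endothelial caveolae and fenestral diaphragms, with a pair of lipid-handling proteins of the capillary surface. They were taken from a fixed list of symbols (Plvap, Cav1, Cav2, Cavin1, Cavin2, Cavin3, Ehd2, Pacsin2, Cd36 and Gpihbp1) and found by their Ensembl identifiers, so they make up 10 of the 55401 genes of the count table. They were measured by RNA sequencing in 8 libraries, of the mouse tumour cell lines EHE26 (n = 2), EHE17 (n = 3) and EHE6 (n = 3). EHE stands for epithelioid hemangioendothelioma, a tumour of vascular endothelium. The labels name the line of each library and give no genotype, tissue of origin, treatment, passage or age for any line. Polyadenylated RNA was sequenced from all of them. Each line stands for itself alone. The labels do not say whether the replicates of a line were grown apart, so a p-value here reflects only how far these libraries differ, which may be technical.

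Caveolae are flask-shaped pits of the plasma membrane that are abundant in endothelium. Caveolin proteins insert into the membrane, cavin proteins coat them from the cytosol, and EHD2 and PACSIN2 act at the neck and in membrane bending. Plasmalemma vesicle-associated protein, encoded by Plvap, forms the thin diaphragms that close the openings of caveolae, transendothelial channels and fenestrae, and it marks vessels of high permeability. CD36 takes up fatty acids and binds thrombospondin, and GPIHBP1 carries lipoprotein lipase to the capillary lumen.

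Levels are CPM (read counts scaled to a common library total) after TMM scaling, a correction of library size for composition. Total counts were between 44620965 and 96237665 per library, and all 10 genes passed the filter on low counts, among 18882 tested genes. Differences are log2 fold changes ± standard error (SE) from edgeR's quasi-likelihood fit over all 8 libraries. A gene was called where its Benjamini-Hochberg adjusted p, over all genes of the fit, was under 0.05 and the absolute log2 fold change was at least 1. The libraries do not group by line alone: EHE26 replicates 1 and 2, EHE17 replicate 3 and EHE6 replicate 3, here called the second set, had 20066 to 20682 genes with a read, against 24462 to 25177 in the other 4 libraries, the first set. They also lay on the other side of the first principal component, which held 56.2% of the variance of log2 CPM. The sets were read from these same data, so p-values of fits with the set as a term are not independent of that choice. The labels give no batch, and EHE26 lies wholly in the second set. For EHE26 the line and the set therefore cannot be told apart except through 1 library of each other line, and values are given with and without the replicate 3 libraries where this changes a call.

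All lines carried transcripts of Pecam1 and of most other endothelial marker genes, some of them at widely differing levels. Pecam1 was at 1295 and 1401 CPM in EHE26, 1382 to 1675 CPM in EHE17 and 1179 to 1658 CPM in EHE6. The summed level of 15 endothelial marker genes was 5164 and 6434 CPM in EHE26, 8163 to 15040 CPM in EHE17 and 3688 to 16150 CPM in EHE6, and the lowest sum of EHE17 and of EHE6 was in replicate 3. Sox17 had no read in EHE26, and the other 14 had reads in every line, some near the floor. Cldn5 was at 7.95 and 0.526 CPM in EHE26, 279 to 770 CPM in EHE17 and 1.05 to 403 CPM in EHE6. Sox18 was at 74.4 and 1.91 CPM in EHE26, 345 to 1540 CPM in EHE17 and 37.1 to 1302 CPM in EHE6. Kdr was at 102 and 46.2 CPM in EHE26, 243 to 669 CPM in EHE17 and 22.1 to 1042 CPM in EHE6.

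Plvap was the member that differed most plainly between the lines. It was high in EHE17, intermediate in EHE6 and low in EHE26, and the libraries of no line overlapped with those of another. Plvap (ENSMUSG00000034845, chromosome 8, 71497765 to 71511752, minus strand, GRCm38) was at 538 and 442 CPM in EHE26 replicates 1 and 2. It was at 3955, 3505 and 5941 CPM in EHE17 replicates 1, 2 and 3, and at 1568, 1508 and 1117 CPM in EHE6 replicates 1, 2 and 3. The means were 490 ± 67.9 CPM in EHE26 (SD, n = 2), 4467 ± 1296 in EHE17 (SD, n = 3) and 1398 ± 245 in EHE6 (SD, n = 3). In EHE26 against EHE17 the log2 fold change was -3.19 ± 0.38 (adjusted p = 0.0121), and Plvap was called. It was the only member called in that comparison, 1 of 10, against 1.08% of all tested genes called in either direction and 0.185% called lower.

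The other comparisons of Plvap missed the threshold with edgeR and passed it with DESeq2. EHE26 against EHE6 gave -1.51 ± 0.35 (adjusted p = 0.104 with edgeR, 0.00476 with DESeq2). EHE17 against EHE6 gave 1.68 ± 0.30 (adjusted p = 0.126 with edgeR, 0.000799 with DESeq2), and edgeR without the low-count filter called it (adjusted p = 0.0462). The call of EHE26 against EHE17 was kept with the set as a term, at -3.27 ± 0.40 (adjusted p = 0.0129), where 1.69% of all genes were called. It was lost without EHE17 replicate 1 (adjusted p = 0.0673), EHE17 replicate 2 (adjusted p = 0.0514), EHE26 replicate 1 (adjusted p = 0.119) and EHE26 replicate 2 (adjusted p = 0.152), while the log2 fold change stayed between -3.35 and -3.05 in those fits. Without EHE6 replicate 3 the difference of EHE26 from EHE6 was called, at -1.64 (adjusted p = 0.0328), as were 8.58% of all genes. It was also called without both replicate 3 libraries (-1.64, adjusted p = 0.00490), as were 22.7% of all genes. In bulk RNA a smaller share of cells with a transcript and less of it per cell cannot be told apart. Endothelial markers differed between these lines too. In EHE26 against EHE17, 13 of the 15 had a negative log2 fold change, against 10541 of all 18882 tested genes. Their median was -1.27, against -0.12 over all genes, and 10 of 15 were lower without overlap, against 20.3%. EdgeR called 0 of them, against 1.08%, with 5 at an unadjusted p under 0.05, against 16.6%. DESeq2 called 5, against 8.49%. In EHE26 against EHE6 all 15 were negative, against 10691 of all 18882 genes, with a median of -1.37, against -0.11 over all genes. There 2 of 15 were lower without overlap, near the 15.3% of all genes. EdgeR called 0 of the 15, against 1.26%, with 6 at an unadjusted p under 0.05, against 15.9%. DESeq2 called 5 of them, against 8.47%. In EHE17 against EHE6 the median was 0.10, against -0.03 over all genes. Their part in the Plvap differences was not tested.

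Replicate 3 lay on opposite sides of the other replicates in EHE17 and EHE6. EHE17 replicate 3 was 0.67 log2 units above the mean of EHE17 replicates 1 and 2, and EHE6 replicate 3 was 0.46 log2 units below the mean of EHE6 replicates 1 and 2 (log2 difference -0.46). The difference between these departures was 1.13 ± 0.43 on the log2 scale (adjusted p = 0.266 from edgeR). None of the 10 genes passed that test, against 2.52% of all tested genes. Counted per kilobase of exon, which allows genes to be compared, Plvap averaged 247 CPM per kb in EHE26, 2248 in EHE17 and 704 in EHE6. By that measure it held rank 158 of 18882 genes in EHE26, rank 4 in EHE17 and rank 26 in EHE6. The Gtpbp3 gene overlaps Plvap on the opposite strand and had at most 7.57% of the Plvap count in any library, and no 75-base window of a Plvap transcript occurs in a transcript of another gene.

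**Figure D1:**
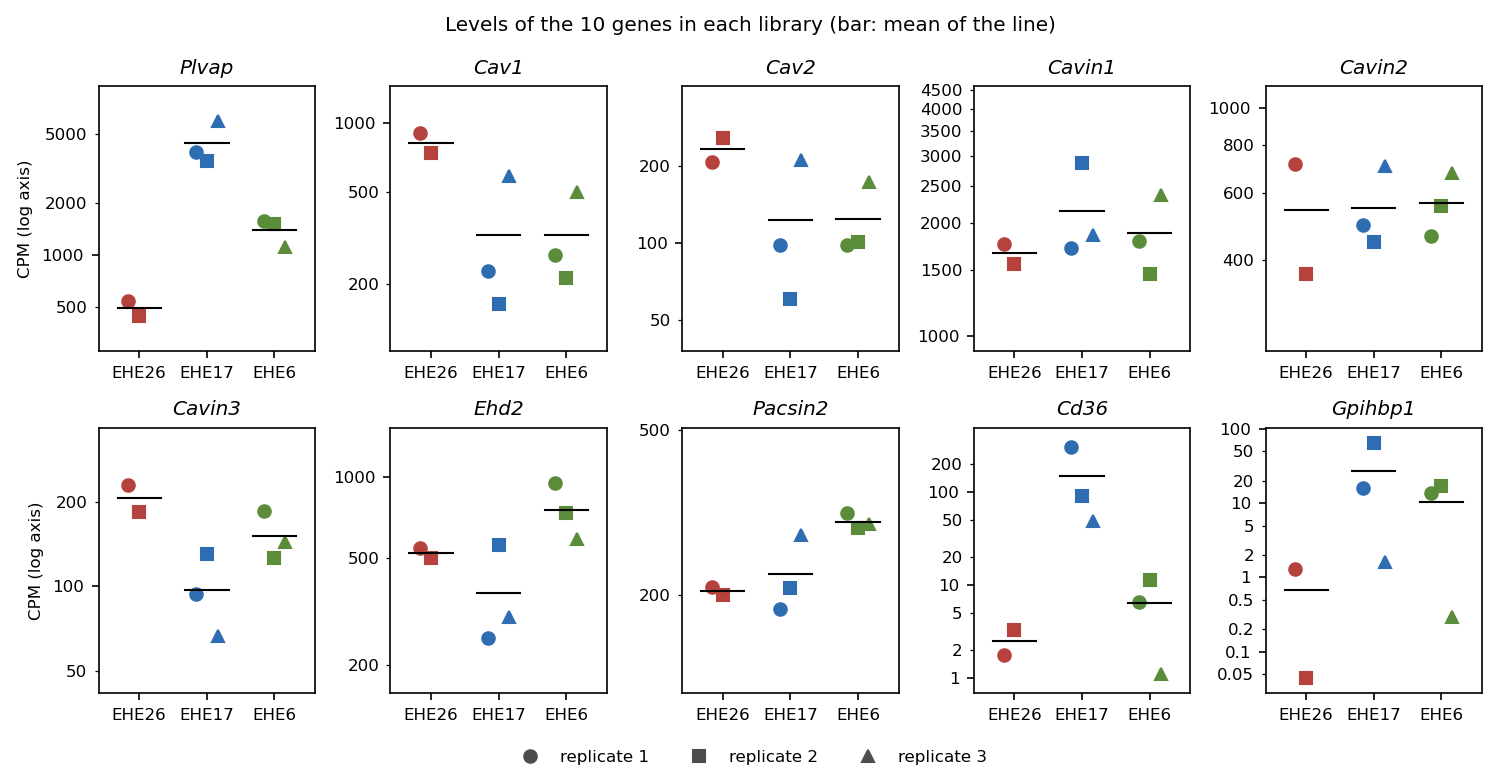
Level of each of the 10 genes in CPM (log axis, its range set for each gene) in the libraries of EHE26, EHE17 and EHE6. Points are libraries, shaped by replicate number, and bars are means of the line. Plvap separates all lines, with EHE17 at 3505 to 5941 CPM, while Cav1 and Cav2 are higher in both EHE26 libraries and in the replicate 3 libraries of EHE17 and EHE6 than in the other libraries.

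The caveolins Cav1 and Cav2 had similar profiles, and both were at higher levels in every library of the second set than in any of the first. The share of all tested genes that divide by set in this way was not computed, so the division is not shown to be particular to them. Cav1 encodes the scaffold without which caveolae do not form in endothelium, and Cav2 encodes its partner, which relies on CAV1 to reach the membrane. Cav1 (ENSMUSG00000007655, chromosome 6, 17306335 to 17341452, plus strand) was at 904 and 739 CPM in EHE26 replicates 1 and 2. It was at 228, 163 and 591 CPM in EHE17 replicates 1, 2 and 3, and at 267, 213 and 501 CPM in EHE6 replicates 1, 2 and 3. Every library of the second set was above every library of the first set, and within the second set both EHE26 libraries were above the replicate 3 libraries of EHE17 and EHE6.

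Cav2 (ENSMUSG00000000058, chromosome 6, 17281185 to 17289115, plus strand) showed the same division at a lower level. It was at 207 and 257 CPM in EHE26 replicates 1 and 2. It was at 98.5, 60.3 and 210.2 CPM in EHE17 replicates 1, 2 and 3, and at 98.1, 101 and 173 CPM in EHE6 replicates 1, 2 and 3. All 4 libraries of the second set were at 173 CPM or more and all 4 of the first at 101 CPM or less. EHE17 replicate 3 lay between the EHE26 libraries, so EHE26 and EHE17 overlapped in Cav2.

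Neither caveolin was called between lines. Cav1 differed by 1.33 ± 0.57 in EHE26 against EHE17 (adjusted p = 0.301) and by 1.33 ± 0.57 in EHE26 against EHE6 (adjusted p = 0.314). Cav2 differed by 0.92 ± 0.51 (adjusted p = 0.385) and 0.90 ± 0.51 (adjusted p = 0.415) in the same comparisons. Between EHE17 and EHE6 the difference was 0.00 ± 0.52 for Cav1 and -0.01 ± 0.46 for Cav2 (both adjusted p = 1). With the set as a term the Cav1 difference was 0.64 ± 0.32 in EHE26 against EHE17 (adjusted p = 0.469) and 0.52 ± 0.33 in EHE26 against EHE6 (adjusted p = 0.575). With both replicate 3 libraries left out, EHE26 was called above EHE17 for Cav1 (2.06, adjusted p = 0.00351) and Cav2 (1.54, adjusted p = 0.0111), and above EHE6 for Cav1 (1.78, adjusted p = 0.00558) and Cav2 (1.23, adjusted p = 0.0230). In those fits 21.9% of all genes were called in EHE26 against EHE17 and 22.7% in EHE26 against EHE6, and the line and the set cannot be told apart.

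Within a line, Cav1 in replicate 3 was 3.06-fold the geometric mean of replicates 1 and 2 (from log2 CPM) in EHE17 and 2.10-fold in EHE6. Cav2 was 2.73-fold and 1.74-fold in those lines. The departure of Cav1 exceeded that of 95.9% of tested genes in EHE17 and 86.5% in EHE6. The test of a difference between the lines in this departure gave 0.53 ± 0.48 for Cav1 (adjusted p = 0.724) and 0.61 ± 0.51 for Cav2 (adjusted p = 0.692). Summed endothelial markers were lowest of their line in these libraries, at 8163 CPM in EHE17 replicate 3 and 3688 CPM in EHE6 replicate 3, and their part in the caveolin values was not tested. Other cells rich in Cav1 include adipocytes, smooth muscle cells, pericytes and fibroblasts. The 6 adipocyte markers summed to at most 3.99 CPM in any library. The 8 smooth muscle and pericyte markers summed to 153 and 156 CPM in EHE26, 7.95 to 63.4 CPM in EHE17 and 223 to 673 CPM in EHE6. Their members differed in profile within EHE6, where Acta2 was at 659, 268 and 15.1 CPM, Rgs5 at 8.23, 9.92 and 183 CPM and Pdgfrb at 1.41, 1.57 and 22.0 CPM in replicates 1, 2 and 3. The pericyte gene Cspg4 was at 18.5 and 24.5 CPM in EHE26, at most 0.432 CPM in EHE17 and at most 2.02 CPM in EHE6, and was called in EHE26 against EHE17 (6.08, adjusted p = 0.0323). The 6 fibroblast markers summed to 215 and 897 CPM in EHE26, 994 to 1778 CPM in EHE17 and 270.0 to 432 CPM in EHE6. Among them Pdgfra was at 77.5 and 59.8 CPM in EHE26, at most 1.76 CPM in EHE17, and 3.87, 5.21 and 252 CPM in EHE6 replicates 1, 2 and 3. Cav1 was high in both replicate 3 libraries, and these markers did not share 1 profile there. Rgs5, Pdgfrb, Pdgfra and Cspg4 were highest of their line in EHE6 replicate 3 and lowest in EHE17 replicate 3. Thy1, the largest part of the fibroblast sum in EHE17, went the other way. It was at 933, 1347 and 1767 CPM in EHE17 and 398, 349 and 8.80 CPM in EHE6 replicates 1, 2 and 3. Acta2, Tagln, Myh11, Cnn1, Des, Col1a1, Col1a2, Dcn and Lum were lowest of their line in both replicate 3 libraries. The part of these markers in the caveolin values was not tested.

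**Figure D2:**
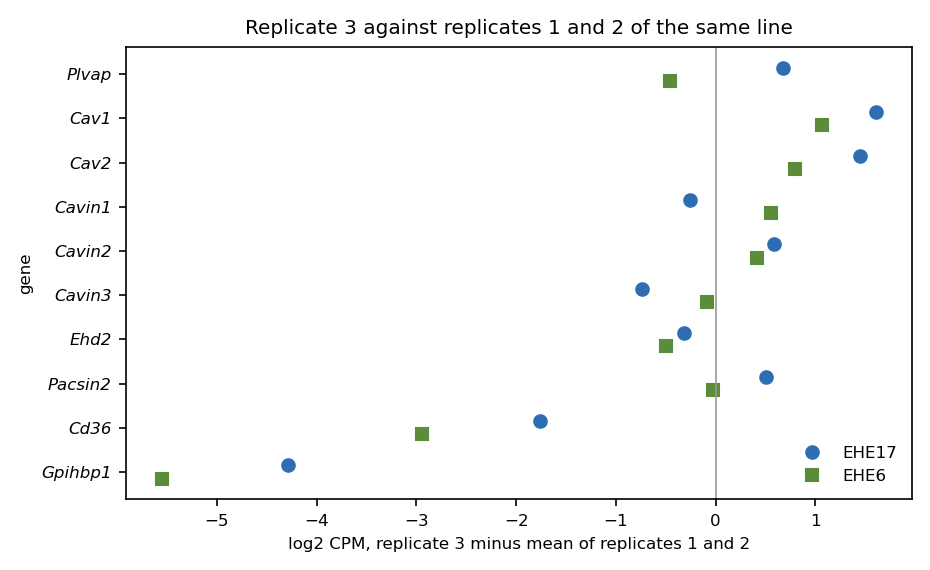
Difference in log2 CPM between replicate 3 and the mean of replicates 1 and 2 of the same line, for EHE17 (circles) and EHE6 (squares), with 1 row per gene. Cav1, Cav2 and Cavin2 lie right of 0 in both lines, and Cavin3, Ehd2, Cd36 and Gpihbp1 left of 0 in both. Plvap, Cavin1 and Pacsin2 lie on opposite sides in the lines.

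Cav2 and Cav1 are neighbours on chromosome 6, read in the same direction, with 17219 bases between the end of Cav2 and the start of Cav1. The likeness of expression patterns was measured as the root-mean-square difference of log2 CPM, centred on the mean of the 8 libraries, where smaller is more alike. Cav1 and Cav2 differed by 0.29, the smallest value among all pairs of the 10 genes. Of 9312 genes at a mean of at least 10 CPM, Cav2 held place 8 in likeness to Cav1, and the next member, Cavin2, held place 3006. The nearest were Sgcd (0.25), Tmem41b (0.25) and Aida (0.26), none of them on chromosome 6. Among the tested genes within 500000 bases of the pair, the next most alike was Capza2 at 0.58, followed by Met at 0.73 and St7 at 0.74. The points share library, depth and scaling, and these values are descriptions.

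The promoters of the pair are shown because these neighbours had the most similar profiles, and that of Cavin1 because that gene, which acts in the same structure, held place 5574 in likeness to Cav1. Sequences are from RefSeq (GRCm38.p6) and run 5′ to 3′ from 250 bases before to 50 after the start. The RefSeq table held promoters of 7 of the 10 genes. Capitals mark every match, on either strand, to the TEAD motif GGAATG, the ETS motif CCGGAA, the GC box GGGCGG and the AP-1 motif TGANTCA, and overlapping matches run together.
Cav1, plus strand, chr6:17306085-17306384: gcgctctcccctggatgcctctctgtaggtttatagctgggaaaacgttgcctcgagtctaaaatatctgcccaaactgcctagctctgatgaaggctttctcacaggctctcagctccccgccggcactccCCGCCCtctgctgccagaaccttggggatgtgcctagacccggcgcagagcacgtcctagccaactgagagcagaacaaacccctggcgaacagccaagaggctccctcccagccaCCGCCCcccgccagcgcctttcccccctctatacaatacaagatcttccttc
Cav2, plus strand, chr6:17280935-17281234: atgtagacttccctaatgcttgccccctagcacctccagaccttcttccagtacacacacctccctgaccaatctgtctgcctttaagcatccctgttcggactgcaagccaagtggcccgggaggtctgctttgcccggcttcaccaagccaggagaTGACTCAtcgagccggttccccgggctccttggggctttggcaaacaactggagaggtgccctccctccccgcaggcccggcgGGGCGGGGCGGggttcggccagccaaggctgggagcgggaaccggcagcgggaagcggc
Cavin1, minus strand, chr11:100970568-100970867: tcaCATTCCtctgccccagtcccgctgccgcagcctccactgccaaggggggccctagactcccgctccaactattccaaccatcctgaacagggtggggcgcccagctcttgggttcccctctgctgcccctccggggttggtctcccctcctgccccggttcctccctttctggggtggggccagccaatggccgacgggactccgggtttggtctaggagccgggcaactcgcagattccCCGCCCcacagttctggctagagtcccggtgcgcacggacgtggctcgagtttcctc

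Cav1 held 2 GC box matches on the reverse strand, whose first bases lie at -118 and -2 from the start. Cav2 held 2 overlapping GC box matches that begin at -9 and -4 and an AP-1 match at -92. Cavin1 held, both on the reverse strand, a GC box match at -7 and the only TEAD match of the 7 promoters, at -247. The Cavin1 window follows the RefSeq start and ends at 100970867. It lies within the GENCODE gene, which reaches 100970887 on the minus strand, and so not upstream of the GENCODE start. GC box matches were present in 6 of the 7 promoters (all but Cavin2) and in 35.7% of all 32851 promoters of the table. The TEAD motif was in 14.7% of all promoters, the AP-1 motif in 7.81% and the ETS motif in 14.9%, and none of the 7 held the ETS letters. A match is a description of letters in this window.

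The cavin Cavin1 was among the most abundant transcripts of all lines and varied little. Its product coats caveolae and is required for them to form. Cavin1 (ENSMUSG00000004044, chromosome 11, 100956733 to 100970887, minus strand) was at 1759 and 1560 CPM in EHE26 and ranged over 1712 to 2881 CPM in EHE17 and 1460 to 2370 CPM in EHE6. Cavin1 differed by -0.37 ± 0.34 in EHE26 against EHE17 (adjusted p = 0.603), -0.18 ± 0.34 in EHE26 against EHE6 (adjusted p = 0.854) and 0.20 ± 0.30 in EHE17 against EHE6 (adjusted p = 1). Per kilobase it averaged 463 CPM per kb in EHE26, 599.6 in EHE17 and 522 in EHE6. By that scale Cavin1 was above Plvap in both EHE26 libraries, Plvap was above Cavin1 in all EHE17 libraries, and they overlapped in EHE6.

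The order of the remaining members by level per kilobase was loose. In EHE26 the libraries of Plvap, Cav1, Cavin2 and Cavin3 overlapped between neighbours in that order, followed by Ehd2, Cav2 and Pacsin2, each below the last without overlap. In EHE17 all neighbours from Cavin2 downwards overlapped. In EHE6 Cavin2, Ehd2, Cav1 and Cavin3 overlapped between neighbours. Pacsin2 lay below Cavin3 without overlap but overlapped with Cav1, and Cav2 lay below Pacsin2 without overlap. Cd36 and Gpihbp1 were lowest in EHE26 and EHE6 and overlapped with each other there.

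Cavin2, whose product helps to shape caveolae in endothelium, varied as little. It was at 715 and 368 CPM in EHE26, 445 to 704 CPM in EHE17 and 462 to 676 CPM in EHE6. The means were 542 ± 246 CPM in EHE26 (SD, n = 2), 548 ± 137 in EHE17 (SD, n = 3) and 565 ± 107 in EHE6 (SD, n = 3). The largest of its differences between lines was -0.06 ± 0.37, in EHE26 against EHE6. The range of Cavin2 over the 8 libraries was 0.96 log2 units, that of Cavin1 0.98 and that of Pacsin2 0.77, against a median of 1.93 over all tested genes.

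Cavin3 had a higher mean in EHE26 than in EHE17 and did not pass the test. Its product binds protein kinase C delta and joins CAV1 in caveolae. Cavin3 (ENSMUSG00000037060, chromosome 7, 105480083 to 105482300, minus strand) was at 229 and 184 CPM in EHE26. It was at 93.7, 130.5 and 66.5 CPM in EHE17 replicates 1, 2 and 3, and at 185, 126 and 143 CPM in EHE6 replicates 1, 2 and 3. Both EHE26 libraries were above all EHE17 libraries, and EHE6 overlapped with each other line. The difference was 1.09 ± 0.33 in EHE26 against EHE17 (adjusted p = 0.179), 0.44 ± 0.33 in EHE26 against EHE6 (adjusted p = 0.554) and -0.64 ± 0.30 in EHE17 against EHE6 (adjusted p = 0.755). Of the 75-base windows of Cavin3 transcripts, 18.9% also occur in the overlapping gene model Gm45667, which had at most 0.123% of the Cavin3 count in any library. The counting tool and strand setting are not given in the sources used here, so Cavin3 counts are uncertain to that extent.

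The neck and membrane-bending genes Ehd2 and Pacsin2 had their highest means in EHE6. EHD2 is an ATPase that holds caveolae at the cell surface, and PACSIN2 is an F-BAR protein of caveola formation. Ehd2 (ENSMUSG00000074364, chromosome 7, 15946958 to 15967567, minus strand) was at 546 and 498 CPM in EHE26. It was at 252, 559 and 301 CPM in EHE17 replicates 1, 2 and 3, and at 946, 732 and 588 CPM in EHE6 replicates 1, 2 and 3. The EHE6 libraries were above all libraries of the other lines, and EHE26 lay within the range of EHE17. The difference was 0.49 ± 0.38 in EHE26 against EHE17 (adjusted p = 0.533), -0.53 ± 0.39 in EHE26 against EHE6 (adjusted p = 0.551) and -1.03 ± 0.35 in EHE17 against EHE6 (adjusted p = 0.560).

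Pacsin2 (ENSMUSG00000016664, chromosome 15, 83375607 to 83464606, minus strand) was at 204 ± 6.54 CPM in EHE26 (SD, n = 2), 224 ± 49.0 in EHE17 (SD, n = 3) and 300.1 ± 13.6 in EHE6 (SD, n = 3). All EHE6 libraries, at 289 to 315 CPM, were above the other 5, at 185 to 279 CPM. The difference was -0.56 ± 0.25 in EHE26 against EHE6 (adjusted p = 0.327), -0.42 ± 0.22 in EHE17 against EHE6 (adjusted p = 0.825) and -0.13 ± 0.25 in EHE26 against EHE17 (adjusted p = 0.810). The pseudogene Gm5417 lies within Pacsin2 on the same strand and had at most 2.04% of its count.

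Ratios of CPM per kilobase within a library do not depend on the scaling between libraries. The ratio of Cav2 to Cav1 was 0.237 and 0.359 in EHE26, 0.367 to 0.445 in EHE17 and 0.357 to 0.489 in EHE6, a 2.06-fold span over the 8 libraries. The ratio of Cav1 to Cavin1 spanned 9.06-fold. It was 0.535 and 0.493 in EHE26, against 0.139, 0.0591 and 0.331 in EHE17 replicates 1, 2 and 3 and 0.155, 0.152 and 0.220 in EHE6 replicates 1, 2 and 3, so that both EHE26 libraries were highest and replicate 3 was highest within each other line. The ratio of Cavin2 to Cavin1 stayed between 0.182 and 0.478. Plvap and Cav1 had near-equal levels per kilobase in EHE26, with ratios of 1.03 and 1.04. The ratio of Plvap to Cav1 was 17.4 to 37.2 in EHE17 and 3.86 to 12.3 in EHE6, a 36.0-fold span over all libraries.

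**Figure D3:**
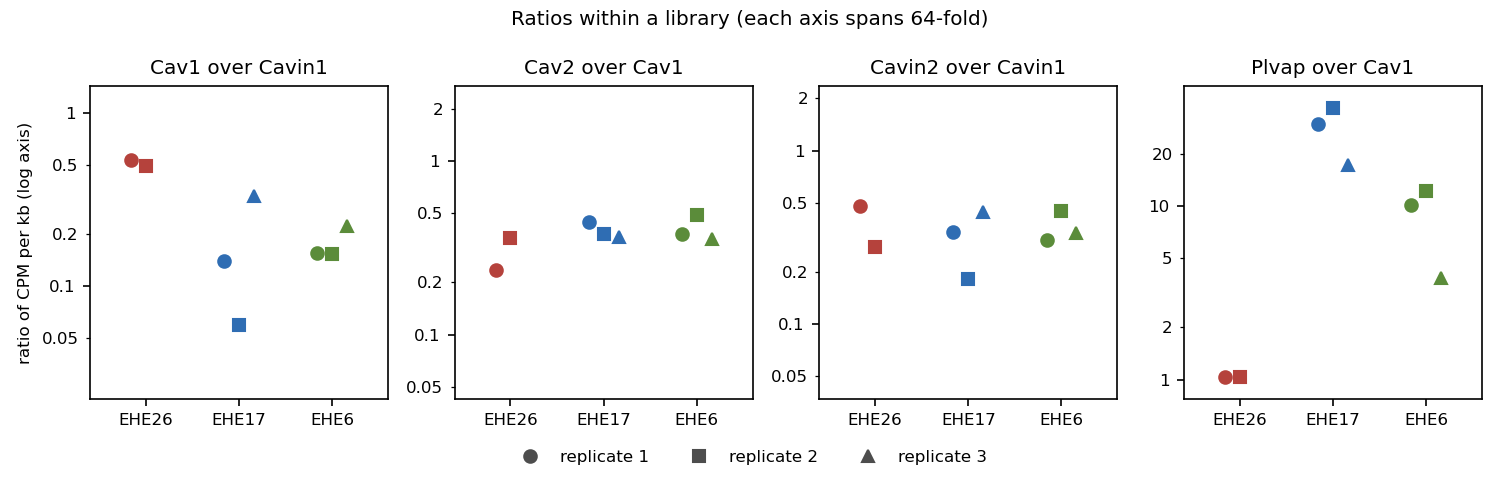
Ratios of CPM per kb of exon between pairs of members within each library (log axis, each spanning the same fold range), by line and replicate. Cav2 over Cav1 and Cavin2 over Cavin1 vary least, Cav1 over Cavin1 is highest in EHE26 at 0.493 and 0.535, and Plvap over Cav1 runs from 1.03 in EHE26 to 37.2 in EHE17.

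Cd36 was high in EHE17 and low in the other lines. Cd36 (ENSMUSG00000002944, chromosome 5, 17781690 to 17888801, minus strand) was at 1.75 and 3.25 CPM in EHE26, from counts of 95 and 148. It was at 302, 89.5 and 48.4 CPM in EHE17 replicates 1, 2 and 3, and at 6.52, 11.4 and 1.09 CPM in EHE6 replicates 1, 2 and 3. All EHE17 libraries were above all others, although they differed widely among themselves, and EHE26 lay within the range of EHE6. Replicate 3 was the lowest of its line, at 0.295-fold the geometric mean of replicates 1 and 2 (from log2 CPM) in EHE17 and 0.130-fold in EHE6.

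The Cd36 differences missed the threshold in the main edgeR fit. EHE26 against EHE17 gave -5.88 ± 1.29 (adjusted p = 0.0875), EHE17 against EHE6 gave 4.53 ± 1.0 (adjusted p = 0.220) and EHE26 against EHE6 gave -1.35 ± 1.03 (adjusted p = 0.566). DESeq2 called Cd36 in EHE26 against EHE17 (adjusted p = 1.07e-07) and EHE17 against EHE6 (adjusted p = 2.911e-05), against 8.49% and 1.96% of all genes. EdgeR without the low-count filter called the same differences (adjusted p = 0.00377 and 0.0129), against 2.38% and 0.453%. With the set as a term Cd36 was called in EHE26 against EHE17, at -4.00 ± 0.70 (adjusted p = 0.0389), where 1.69% of all genes were called. It was also called in EHE17 against EHE6, at 4.77 ± 0.58 (adjusted p = 0.0169), where 0.54% of all genes were called. In the same fit EHE26 against EHE6 changed sign, at 0.77 ± 0.70 (adjusted p = 0.724), and no member was called, against 1.89% of all genes. With both replicate 3 libraries left out EHE26 against EHE17 was -6.30 ± 0.72 (adjusted p = 0.00175), where 21.9% of all genes were called. Without EHE6 replicate 3 alone it was -5.88 ± 0.95 (adjusted p = 0.0121), where 7.44% were called. With both left out EHE17 against EHE6 was 4.46 ± 0.66 (adjusted p = 0.0356), where 0.775% of all genes were called. Macrophages also express Cd36. Of the 8 macrophage and leukocyte markers all had reads in every line, and their sum was 49.5 and 73.4 CPM in EHE26, 101 to 208 CPM in EHE17 and 48.5 to 52.8 CPM in EHE6. In EHE17 replicates 1, 2 and 3, Cd14 was at 66.6, 118 and 20.2 CPM, Lyz2 at 18.0, 22.7 and 36.6 CPM and Cd68 at 5.68, 4.06 and 29.5 CPM. Cd14 was at 29.2 and 13.4 CPM in EHE26 and 19.9 to 31.9 CPM in EHE6. Mrc1, a lectin of macrophages and of lymphatic and sinusoidal endothelium, was at 8.77, 60.2 and 54.0 CPM in EHE17 replicates 1, 2 and 3, at most 1.97 CPM in EHE26 and at most 0.97 CPM in EHE6. In EHE17 against EHE6 its log2 fold change was 5.77 (adjusted p = 0.0971 with edgeR, 2.139e-10 with DESeq2). Ptprc, Adgre1 and Itgam were at 1.49 CPM or less and Csf1r at 3.95 CPM or less in every library. The part of these markers in the Cd36 values was not tested.

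Gpihbp1 was low in the second set of libraries whatever the line. Gpihbp1 (ENSMUSG00000022579, chromosome 15, 75596628 to 75599481, plus strand) was at 1.31 and 0.0439 CPM in EHE26, from counts of 71 and 2. It was at 15.9, 64.6 and 1.61 CPM in EHE17 replicates 1, 2 and 3 (counts of 1279, 5833 and 80), and at 13.6, 17.0 and 0.294 CPM in EHE6 replicates 1, 2 and 3 (counts of 1013, 1205 and 14). All 4 libraries of the first set were above all 4 of the second, a division whose share among all tested genes was not computed. The differences were -5.32 ± 2.24 in EHE26 against EHE17 (adjusted p = 0.292), -3.92 ± 2.08 in EHE26 against EHE6 (adjusted p = 0.388) and 1.41 ± 1.57 in EHE17 against EHE6 (adjusted p = 1). With the set as a term EHE26 against EHE17 was -0.94 ± 1.16 (adjusted p = 0.869), and EHE26 against EHE6 changed sign, at 0.75 ± 1.26 (adjusted p = 0.887). With both replicate 3 libraries left out Gpihbp1 was called lower in EHE26 than in EHE17, at -5.87 ± 1.23 (adjusted p = 0.0149), and than in EHE6, at -4.46 ± 1.16 (adjusted p = 0.0304). Of all genes 21.9% and 22.7% were called in those comparisons. The spread of Gpihbp1 within lines, an SD of 2.95 log2 units, exceeded that of 98.8% of tested genes, and that of Cd36, 1.42, exceeded that of 84.6%.

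**Figure D4:**
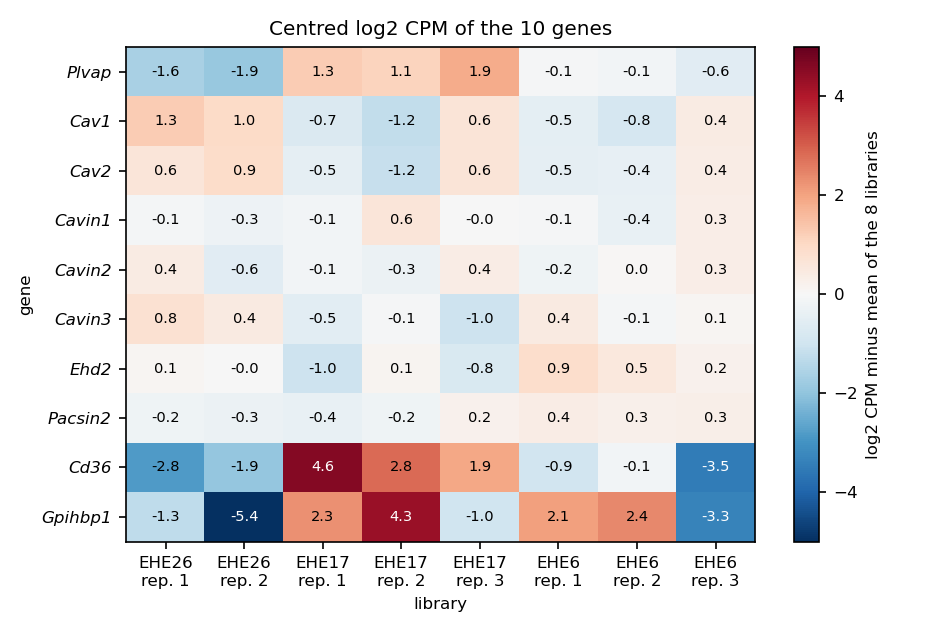
Log2 CPM of each gene minus its mean over the 8 libraries, with 1 column per library and the value printed in each cell. Cavin1, Cavin2 and Pacsin2 stay close to 0, Plvap and Cd36 are positive in EHE17, Cav1 and Cav2 are positive in EHE26 and the replicate 3 libraries, and Gpihbp1 is negative there.

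Over the 10 genes, EHE26 against EHE17 had 0 called higher and 1 called lower (Plvap), where 0.89% of all genes were called higher, with a median log2 fold change of -0.08 against -0.12 over all tested genes. In that comparison 5 of 10 had an unadjusted p under 0.05, against 16.6% of all genes, and DESeq2 called 3 (Plvap, Cd36 and Gpihbp1), against 8.49%. The libraries did not overlap for 5 of 10, against 39% of all genes. Cav1 and Cavin3 lay higher in EHE26, as did 18.7% of all genes, and Plvap, Cd36 and Gpihbp1 lower, as did 20.3%. In EHE26 against EHE6 edgeR called 0 of 10, against 1.26% of all genes (1.1% higher and 0.159% lower), with 2 at an unadjusted p under 0.05 (Plvap and Cav1), against 15.9%. DESeq2 called Plvap alone, 1 of 10 against 8.47%. Libraries did not overlap for 5 of 10 in that comparison, against 31.3%. Cav1 and Cav2 lay higher in EHE26, as did 16% of all genes, and Plvap, Ehd2 and Pacsin2 lower, as did 15.3%. In EHE17 against EHE6 edgeR called 0 of 10, against 0.143% of all genes (0.0794% higher and 0.0636% lower). There 3 of 10 had an unadjusted p under 0.05 (Plvap, Ehd2 and Cd36), against 6.90%, and DESeq2 called 2 (Plvap and Cd36), against 1.96%. Libraries did not overlap for 4 of 10 between EHE17 and EHE6, against 12.2%. Plvap and Cd36 lay higher in EHE17, as did 7.25% of all genes, and Ehd2 and Pacsin2 lower, as did 4.94%. The comparisons share libraries, so these counts are not independent of each other.

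**Figure D5:**
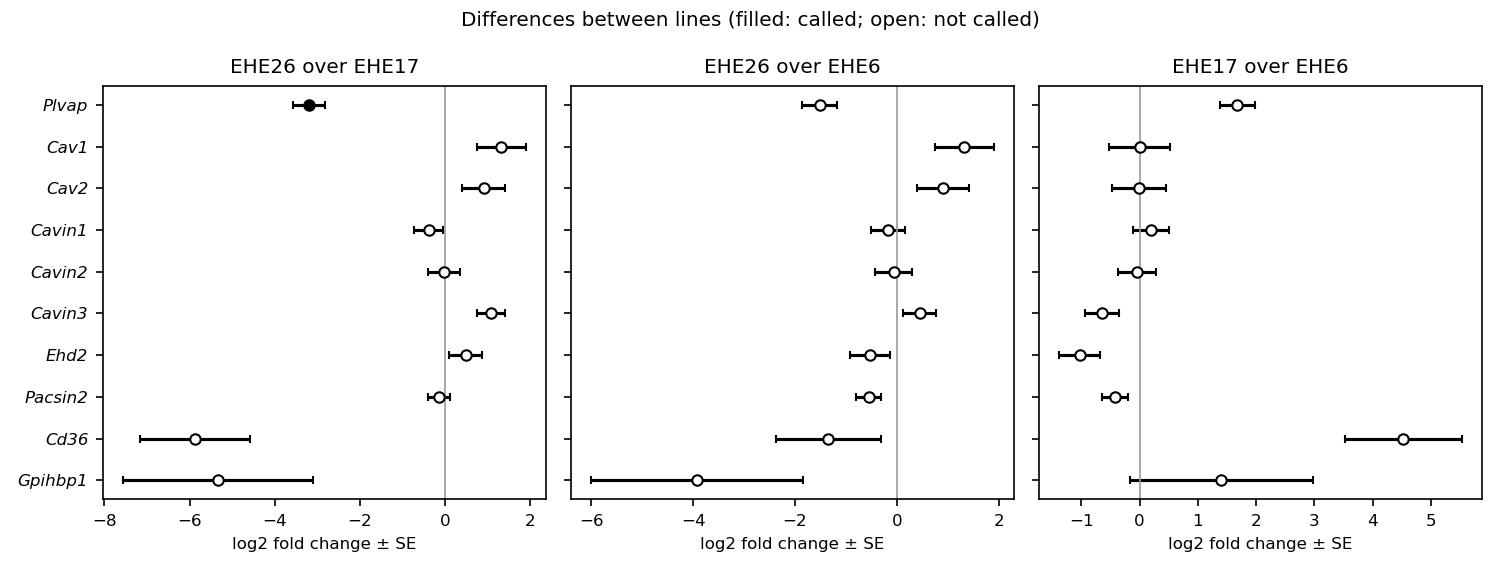
Log2 fold change ± SE of each gene in EHE26 over EHE17, EHE26 over EHE6 and EHE17 over EHE6 (edgeR, all 8 libraries). Filled points passed the test: Plvap in EHE26 over EHE17, at -3.19, and open points did not.

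Genes with patterns most like Plvap, by the same measure over 8 libraries, were Ampd3 (0.44), Fry (0.51) and Elmo1 (0.56). Ampd3 was at 6.37 and 14.8 CPM in EHE26, 68.4 to 115 CPM in EHE17 and 24.0 to 33.3 CPM in EHE6. Those nearest to Cd36 were farther away: the long noncoding RNA Mirt1 (0.93) and Prss16 (0.95). Those nearest to Gpihbp1 were the Notch ligand Dll4 (0.77), the venular chemokine receptor Ackr1 (0.93) and Tspan18 (0.94). Dll4 was at 12.4 and 1.45 CPM in EHE26, at 234, 333 and 50.1 CPM in EHE17 replicates 1, 2 and 3, and at 266, 361 and 3.22 CPM in EHE6 replicates 1, 2 and 3.

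Related genes of the same structures were not called by edgeR, and DESeq2 called a few. Of 13 relatives in caveola assembly and membrane bending 12 were tested, and edgeR called 0 in each comparison, with 2, 4 and 1 at an unadjusted p under 0.05 in EHE26 against EHE17, EHE26 against EHE6 and EHE17 against EHE6. Over all genes edgeR called 1.08%, 1.26% and 0.143% in that order, and 16.6%, 15.9% and 6.9% had an unadjusted p under 0.05. DESeq2 called 8.49%, 8.47% and 1.96% of all genes, and 2, 2 and 0 of the relatives. These were Pacsin1 and Dnm3, which, like the other genes of the related lists named here for their calls by DESeq2, were chosen after their values were seen. Dnm3, a dynamin, was at 1.29 and 0.833 CPM in EHE26, 17.2 to 32 CPM in EHE17 and 0.904 to 11.3 CPM in EHE6, and its log2 fold change was -4.48 ± 1.06 in EHE26 against EHE17 (adjusted p = 0.105). The muscle caveolin Cav3 had 2 reads in EHE17 replicates 1 and 2 each and none in the other libraries. Ehd1, Ehd4 and Dnm2 were at 137 CPM or more in every library and were not called.

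All 12 genes of caveolar signalling and transcytosis were tested, and edgeR called 0 in each comparison, against 1.08%, 1.26% and 0.143% of all genes. In the same order 1, 4 and 1 had an unadjusted p under 0.05, against 16.6%, 15.9% and 6.9%. DESeq2 called 1, 2 and 0, against 8.49%, 8.47% and 1.96%. These were Nostrin in both comparisons of EHE26 and Acvrl1 in EHE26 against EHE6. Nostrin, which traffics endothelial nitric oxide synthase, was at 2.21 and 1.64 CPM in EHE26, against 0.199 to 0.381 CPM in EHE17 and 0.268 to 0.399 CPM in EHE6 (2.73 ± 0.61, adjusted p = 0.0925, and 2.50 ± 0.61, adjusted p = 0.124). Nos3, the synthase that CAV1 binds and restrains, was at 32.1 and 60.6 CPM in EHE26, 53.3 to 86.3 CPM in EHE17 and 4.96 to 194 CPM in EHE6. Mfsd2a, the lipid transporter that limits caveolar transcytosis in brain endothelium, was at 1.05 CPM or less in every library.

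Of 18 genes of endothelial fatty acid handling 17 were tested, and edgeR called 0 in each comparison, against 1.08%, 1.26% and 0.143% of all genes. In the same order 6, 4 and 4 had an unadjusted p under 0.05, against 16.6%, 15.9% and 6.9%. DESeq2 called 4 (Fabp4, Angptl4, Acsl3 and Vldlr), 2 (Angptl4 and Meox2) and 1 (Meox2), against 8.49%, 8.47% and 1.96%. The median log2 fold change of the list was -0.17, 0.01 and 0.11, against -0.12, -0.11 and -0.03 over all tested genes. Fabp4, a fatty acid carrier of capillary endothelium, was at 1.34 and 3.07 CPM in EHE26, at 60.9, 23.2 and 211 CPM in EHE17 replicates 1, 2 and 3, and at 28.8, 24.3 and 1.09 CPM in EHE6 replicates 1, 2 and 3 (-5.48 ± 1.59 in EHE26 against EHE17, adjusted p = 0.167). Like Cd36 it was low in EHE26 and in EHE6 replicate 3, but it was highest in EHE17 replicate 3, where Cd36 was lowest within EHE17. Angptl4, an inhibitor of lipoprotein lipase, was at 7.82 and 9.08 CPM in EHE26, 15.3 to 209.8 CPM in EHE17 and 34.9 to 358 CPM in EHE6. Lpl, the lipase that GPIHBP1 carries, was at 93.6 and 90.6 CPM in EHE26, at 13.2, 18.2 and 41.6 CPM in EHE17 replicates 1, 2 and 3, and at 8.96, 7.45 and 132 CPM in EHE6 replicates 1, 2 and 3. Lpl was thus higher in each library of the second set, the 4 libraries where Gpihbp1 was lowest, than in any of the first set. The share of all tested genes higher in the second set in this way was not computed, and a relation between Lpl and Gpihbp1 was not tested.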

How the data were processed

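Gene counts of 8 polyA-selected RNA libraries (EHE26, n = 2; EHE17, n = 3; EHE6, n = 3) were analysed. The authors deposited whole-number counts by Ensembl identifier, not normalized. Reads were aligned with HISAT2 to mm10, per the submitters' processing notes; the version, counting tool, annotation and strand setting are not given in the sources used here. Each sample's file equals its column in the series table (8 of 8). Symbols, positions and exon lengths came from GENCODE M21 (GRCm38), which held 55141 of 55401 identifiers.

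Counts were filtered with filterByExpr by line, scaled with TMM and fitted with edgeR 4.0.16 (R 4.3.3), with line as the only term. Level per kb uses the union of annotated exons, so it is approximate where isoforms differ. Log2 CPM for patterns used a prior count of 2. Alternatives were DESeq2 1.42.0, RLE factors, no filter, replicate block, set of libraries, only the 2 lines compared, and leaving out libraries. The pipeline was tested on simulated data drawn without the division into sets, so that test does not show how the fit behaves with it. Same-numbered EHE17 and EHE6 libraries departed from their line means with correlations of 0.132, 0.180 and 0.574 across genes. Every value was over 0.1, the rule used for reading the numbers as a pairing of these lines. Replicates 1 and 2 correlated more across numbers, at 0.623 for EHE17 replicate 1 with EHE6 replicate 2. EHE17 replicate 2 with EHE6 replicate 1 gave 0.536. The numbers therefore do not establish a pairing, and the main fit used none. The members, gene lists, set and naming rule (all members, called related genes, the 3 most similar genes, of which 1 is not reported here) were chosen with earlier results of these data known. Intervals cover the spread between libraries; the counts give no molecule numbers.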

Additional observations from a re-analysis of the deposited data

How the results depend on the processing

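All alternatives were run. Of the member differences under the alternatives, 388 kept direction and side of the threshold, 27 became called, 4 lost a call and 31 changed sign. The comparisons are given in the order EHE26 against EHE17, EHE26 against EHE6, EHE17 against EHE6, whose called genes were 203, 237 and 27 and called members 1, 0 and 0. DESeq2 called 1699, 1597 and 393 genes and 3, 1 and 2 members. Without the low-count filter 745, 547 and 142 genes and 2, 0 and 2 members were called. The replicate block gave 1860, 1459 and 33 genes and 5, 1 and 0 members, and the Cav1 difference was then 1.99 in EHE26 against EHE17 and 1.86 in EHE26 against EHE6; EHE26 numbers did not pair with the other lines (correlations -0.115 to 0.182). The block changed no member call in EHE17 against EHE6. With only the 2 lines compared, 764, 126 and 7 genes and 2, 0 and 0 members were called. The set as a term gave 319, 356 and 102 genes and 2, 0 and 1 members. Leaving out both replicate 3 libraries gave 4150, 4302 and 147 genes and 5, 4 and 1 members. Leaving out 1 library gave 2 to 1415, 65 to 1632 and 1 to 54 genes, and 0 to 2, 0 to 1 and 0 to 0 members.

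The log2 differences that changed sign were as follows. Cav1 in EHE17 against EHE6 was -0.009 with RLE factors, -0.007 with DESeq2, -0.124 with the block, -0.006 with the 2 lines alone, -0.117 with the set and -0.282 without both replicate 3 libraries. Cavin2 was 0.134 with the block and 0.198 without both replicate 3 libraries in EHE26 against EHE17, and 0.064 and 0.102 in EHE26 against EHE6. Without both replicate 3 libraries Pacsin2 was 0.045 in EHE26 against EHE17 and Cavin1 0.035 in EHE26 against EHE6. With the set as a term Cd36 was 0.772 and Gpihbp1 0.751 in EHE26 against EHE6. Leaving out 1 library gave, in EHE17 against EHE6, -0.741 to 0.459 for Cav1, -0.644 to 0.324 for Cav2, -0.066 to 0.418 for Cavin1, -0.264 to 0.122 for Cavin2 and -0.229 to 1.969 for Gpihbp1. It gave -0.576 to 0.388 for Cavin2 and -0.253 to 0.057 for Pacsin2 in EHE26 against EHE17, and -0.328 to 0.034 for Cavin1 and -0.618 to 0.350 for Cavin2 in EHE26 against EHE6. The causes were not tested. EHE26 has 2 libraries, so without 1 of them the other was assumed to vary like the other lines. Depth limits Gpihbp1, with 2 counts in EHE26 replicate 2.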
